A study of Mus musculus with 4 samples.

Results

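*Stra8*, *Meioc* and *Ythdc2*, 3 genes that act when mouse germ cells enter meiosis, were followed in whole testes at P10 (postnatal day 10). The members were the rows of the deposited gene table carrying these names, which are 3 of 55820 rows, and all 3 were among the 20561 rows with enough reads to be tested. The study deleted *Mps1*, the gene for the spindle checkpoint kinase MPS1 (its current symbol is *Ttk*), and compared gene expression in testes with and without the deletion. RNA was sequenced from the testes of male C57BL/6J mice, with 2 control libraries and 2 libraries from Mps1sKO mice, a knockout made with *Stra8*-Cre. In Mps1sKO mice a Cre recombinase driven by the *Stra8* promoter removes a floxed part of *Mps1* in germ cells, so the gene that drives the Cre is also 1 of the members. Whether the controls carried the Cre or floxed alleles, and whether the transgene holds transcribed *Stra8* sequence that could be counted, is not given in the sources used here. The libraries of a group are described as biological replicates, but the number of mice in each is not given.

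Entry into meiosis is set in motion by retinoic acid, which turns on *Stra8* in differentiating spermatogonia and preleptotene spermatocytes. STRA8 is a transcription factor that works with its partner MEIOSIN to raise the transcription of meiotic prophase genes. MEIOC and YTHDC2 act on RNA instead. YTHDC2 is a helicase with a YTH domain, the fold that recognises the m6A mark on RNA, and MEIOC binds it. With RBM46 and the exonuclease XRN1 this complex is known for keeping mitotic transcripts, among them that of the cyclin gene *Ccna2*, low as meiosis begins.

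All coordinates are on GRCm38, and the identifiers and positions of the genes in the table equal those of GENCODE M21. *Stra8* (ENSMUSG00000029848) lies on the plus strand at chr6:34920163-34939344 and has 4 annotated transcripts. *Meioc* (ENSMUSG00000051455) lies on the plus strand at chr11:102663716-102682237 and has 3 transcripts. *Ythdc2* (ENSMUSG00000034653) has 4 transcripts. The gene lengths in the table were 1803, 4616 and 8878 bases and equalled the union of the annotated exons. No other row of the table overlapped any of these 3 loci.

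The sequence before the start sites is shown for *Stra8*, *Meioc* and *Meiosin*. Among the members and the genes of their protein partners, these 3 were lower in both Mps1sKO libraries than in both controls. Genes of other lists read below, such as *Sohlh1*, were lower in this way too. The windows come from RefSeq (GRCm38.p6) and reach 250 bases before the start site. *Meiosin* is the row *Gm4969* of the table, and RefSeq lists it as *Bhmg1*. The *Stra8* window falls inside an exon annotated as 5′ UTR in a longer GENCODE transcript, so only 30 bases around each of its AGGTCA half-sites, the letters that retinoic acid receptors bind, are printed, with the half-site in capitals. The first stretch is chr6:34920742-34920771 and the second is chr6:34920898-34920927, both on the plus strand.
Stra8 half-site 1: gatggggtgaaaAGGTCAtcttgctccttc
Stra8 half-site 2: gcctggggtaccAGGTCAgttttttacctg
The *Meioc* window is chr11:102665335-102665584 on the plus strand and lies outside the exons of *Meioc*, within the first intron of its longest-reaching transcript. The *Meiosin* stretch is chr7:19118369-19118594, read on the minus strand, and ends just before the first GENCODE exon. Capitals in both mark every match, on either strand, to AGGTCA, to CACGTG (the E-box bound by MAX and MGA), to GCGGGAA (an E2F site), to CCAAT (the NF-Y box) and to CNCCTCAG (a motif reported for STRA8).
Meioc upstream: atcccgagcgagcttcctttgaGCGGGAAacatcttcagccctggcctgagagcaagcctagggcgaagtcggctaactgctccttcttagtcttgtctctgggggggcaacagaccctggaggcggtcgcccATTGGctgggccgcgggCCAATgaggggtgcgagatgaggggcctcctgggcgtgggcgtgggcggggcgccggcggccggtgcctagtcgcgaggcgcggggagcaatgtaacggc
Meiosin upstream: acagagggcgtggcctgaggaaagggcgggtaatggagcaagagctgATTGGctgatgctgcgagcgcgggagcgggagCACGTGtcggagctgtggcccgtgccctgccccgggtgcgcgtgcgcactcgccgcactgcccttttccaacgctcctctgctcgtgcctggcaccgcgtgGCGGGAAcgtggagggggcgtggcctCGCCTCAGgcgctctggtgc
The motifs were chosen after these windows had been read, no matches overlapped each other here, and a match is only a description of letters. AGGTCA occurred 2 times in the *Stra8* window and in 14.0% of 32851 mouse promoter windows of the same length. CACGTG was present 1 time before *Meiosin* and 1 time before *Rbm46* and was found in 6.02% of all windows. GCGGGAA was present 1 time before *Meioc* and 1 time before *Meiosin*, against 3.82% of all windows. CCAAT occurred 4 times before *Stra8*, 2 times before *Meioc*, 1 time before *Meiosin* and 2 times before *Rbm46*, and is common, with 33.8% of all windows holding it. CNCCTCAG was present 1 time before *Meiosin* and 1 time before *Rbm46*, against 6.42% of all windows. *Ythdc2* was not searched.

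Library totals ran from 23311689 to 28607746 counts, and the members had 769 to 4345 counts in a library, so that counting error alone was at most 3.61% of a value. Levels are given as CPM, counts scaled to a common library size with TMM factors, and tests are edgeR's two-sided quasi-likelihood test with Benjamini-Hochberg adjustment over all tested rows. Replicate libraries spread further than counting alone would give (chi-square divided by its degrees of freedom, 8.49 for the controls and 11.6 for Mps1sKO). Mitochondrial genes took 2.80% and 3.14% of control counts and 2.62% and 2.52% of Mps1sKO counts. The deleted gene *Ttk* was at 27.9 and 32.6 CPM in the controls and 13.0 and 12.2 CPM in the Mps1sKO libraries. Its log2 fold change was -1.26 (SE 0.129, adjusted p = 0.0461), so both libraries labelled Mps1sKO carried less of it. That call does not hold in 5 of 13 alternative fits, where the adjusted p ran up to 0.224.

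*Stra8* and *Meioc* were lower in both Mps1sKO libraries than in both controls, at 57.9% and 53.5% of the control mean, whereas *Ythdc2* was at 86.7% with overlapping groups. No member passed an adjusted p of 0.05 in edgeR, where 0.0292% of all tested rows were called lower. At an unadjusted p under 0.05, *Stra8* and *Meioc* were lower, as were 5.37% of all rows, while 3.92% were higher. With DESeq2, 2 of the 3 members, again *Stra8* and *Meioc*, fell at an adjusted p under 0.05, against 0.194% of the rows that it gave one, and with limma-voom 0 of 3 did. Both also met the study's own cut-offs, a fold above 1.5 with an unadjusted p under 0.01, which 0.681% of all rows met in the lower direction. Both are on the study's list of lower genes, which was drawn from these libraries, so this is not independent evidence of their direction. The study also reported qPCR of both genes in P10 testes, with changes it calls consistent, and fewer STRA8-positive cells per tubule at P10. It does not state whether the same mice were used. In RNA from a whole testis, fewer cells of a type and less RNA per cell cannot be told apart.

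*Stra8*, the transcription factor gene, was at 112 CPM in control 1 and 151 CPM in control 2. It was at 86.7 CPM in Mps1sKO 1 and 65.5 CPM in Mps1sKO 2. Control 2 was the highest library and Mps1sKO 2 the lowest, and the groups did not overlap, as was so in the lower direction for 21.1% of all rows. The group levels were 131 ± 27.4 and 76.1 ± 15.03 CPM (SD, n = 2 each). The log2 fold change was -0.79 (SE 0.174, 95% confidence interval -1.19 to -0.39, edgeR adjusted p = 0.494), and *Stra8* ranked 65 by p over all tested rows. DESeq2 gave -0.78 with an adjusted p of 0.00367. With 1 library left out, edgeR gave -0.99 without control 1, -0.56 without control 2, -1.004 without Mps1sKO 1 and -0.60 without Mps1sKO 2. In such a fit the library remaining in its group is assumed to vary like the others.

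*Meioc*, the cofactor of the RNA-binding complex, was at 49.2 and 71.0 CPM in controls 1 and 2. It was at 35.6 and 28.7 CPM in Mps1sKO 1 and 2. The order of the libraries was that of *Stra8*, with control 2 highest, Mps1sKO 2 lowest and no overlap. The group levels were 60.1 ± 15.5 and 32.2 ± 4.88 CPM (SD, n = 2 each). The log2 fold change was -0.90 (SE 0.184, 95% confidence interval -1.33 to -0.48, edgeR adjusted p = 0.494), and *Meioc* ranked 36 by p. DESeq2 gave -0.90 with an adjusted p of 0.00160. With 1 library left out, edgeR gave -1.15 without control 1, -0.62 without control 2, -1.07 without Mps1sKO 1 and -0.76 without Mps1sKO 2.

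*Ythdc2* lies on the plus strand of chromosome 18 from 44827746 to 44889724. This gene, which encodes the helicase of the complex, was at 49.5 and 61.7 CPM in controls 1 and 2. It was at 52.9 and 43.5 CPM in Mps1sKO 1 and 2. Mps1sKO 1 lay between the controls, so the groups overlapped. The group levels were 55.6 ± 8.67 and 48.2 ± 6.67 CPM (SD, n = 2 each). The log2 fold change was -0.21 (SE 0.141, 95% confidence interval -0.53 to 0.12, edgeR adjusted p = 0.662), and DESeq2 gave an adjusted p of 0.945. The interval leaves room for no difference and for a drop of 0.53 on the log2 scale. It overlaps the intervals of *Stra8*, which ends at -0.385, and of *Meioc*, which ends at -0.478. The value rests on single libraries, being -0.04 without control 2, -0.07 without Mps1sKO 2, -0.36 without control 1 and -0.35 without Mps1sKO 1.

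**Figure D1:**
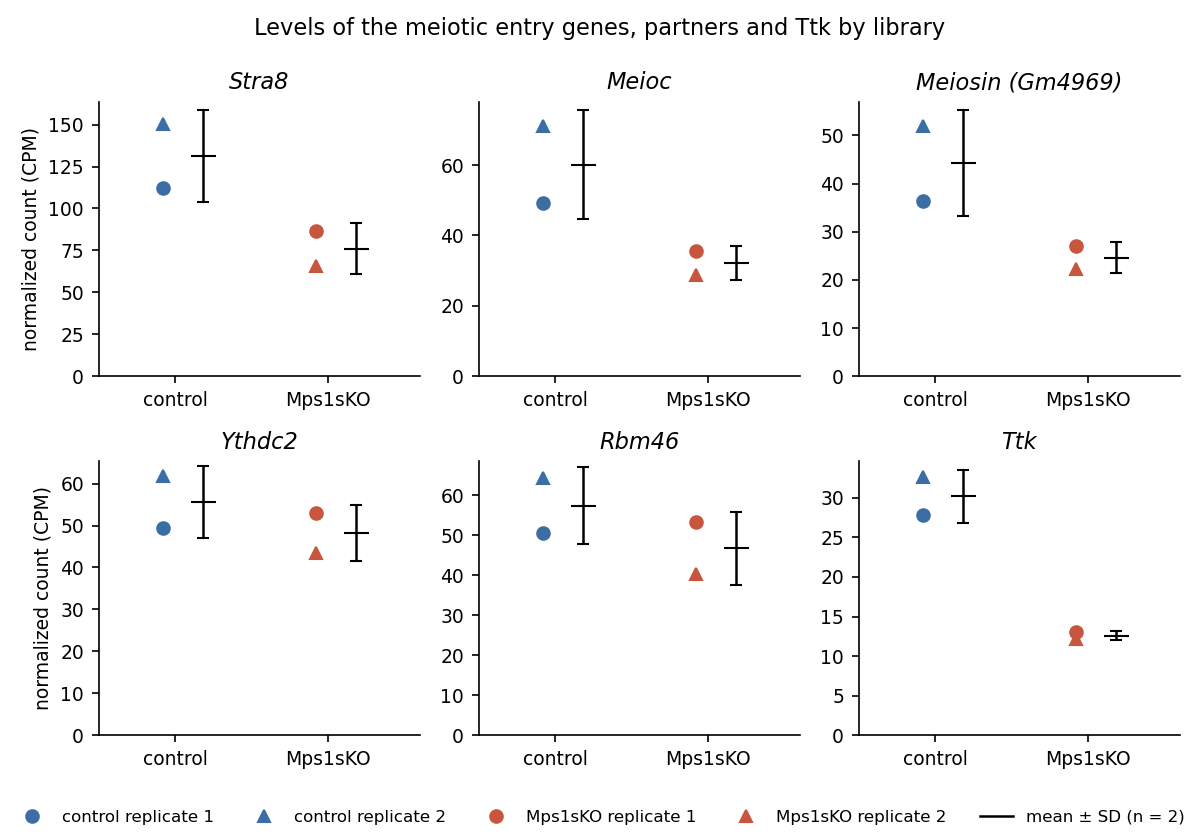
Normalized counts (CPM, linear axes from 0) of 6 genes in the 2 control and 2 Mps1sKO libraries, with the mean and SD of each group (n = 2). The Mps1sKO libraries lie below both controls for *Stra8*, *Meioc*, *Meiosin* and *Ttk*, while *Ythdc2* and *Rbm46* overlap between groups.

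Compared per length, in the deposited FPKM values, *Stra8* had the highest level of the 3 members in every library. It was at 61.6 and 83.0 FPKM in the controls and 47.9 and 36.2 FPKM in Mps1sKO. Its mean of 57.2 FPKM exceeded that of 96.3% of the tested rows. *Meioc* was at 10.6 and 15.3 FPKM in the controls and 7.68 and 6.20 FPKM in Mps1sKO. *Ythdc2* was at 5.52 and 6.91 FPKM in the controls and 5.93 and 4.89 FPKM in Mps1sKO. *Stra8* and *Meioc* did not overlap in FPKM across the 4 libraries, whereas *Meioc* in Mps1sKO 2 was below *Ythdc2* in control 2, so these neighbours overlap across libraries while keeping their order within each.

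The partners of the proteins encoded by the members were read next. *Meiosin*, which encodes the partner of STRA8, was at 36.5 and 52.0 CPM in the controls and 27.0 and 22.3 CPM in Mps1sKO. The groups did not overlap and the libraries kept the order seen for *Stra8*. The log2 fold change was -0.85 (SE 0.179, edgeR adjusted p = 0.494), and *Meiosin* fell by 0.84 on the log2 scale with DESeq2 (adjusted p = 0.00660). *Rbm46*, which encodes an RNA-binding partner of MEIOC and YTHDC2, was at 50.6 and 64.2 CPM in the controls and 53.2 and 40.3 CPM in Mps1sKO. As for *Ythdc2*, Mps1sKO 1 lay between the controls. Its log2 fold change was -0.30 (SE 0.162, edgeR adjusted p = 0.602). *Xrn1*, the exonuclease gene, was at 119 and 131 CPM in the controls and 128 and 115 CPM in Mps1sKO, again with overlap. Its log2 fold change was -0.04 (edgeR adjusted p = 0.928).

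The transcription factor was related to the RNA-binding partners by ratios within each library, which do not depend on how libraries are scaled. The ratio of *Stra8* to *Meioc*, in counts per kilobase, was 5.83 and 5.43 in the controls and 6.23 and 5.84 in Mps1sKO. The Mps1sKO ratios were the higher by a difference of 0.10 in the mean log2 ratio, and single libraries moved that difference to 0.050 (without control 2), 0.054 (without Mps1sKO 1) and 0.15 (without control 1). The ratio of *Stra8* to *Ythdc2* was 11.1 and 12.02 in the controls and 8.07 and 7.41 in Mps1sKO. The ratio of *Meioc* to *Ythdc2* was 1.91 and 2.21 in the controls and 1.29 and 1.27 in Mps1sKO. The mean log2 ratios to *Ythdc2* were thus lower in Mps1sKO by differences of -0.58 for *Stra8* and -0.68 for *Meioc*, both larger than the spread between replicates (SD 0.0770 and 0.0864 for *Stra8*, 0.150 and 0.0196 for *Meioc*). MEIOC and YTHDC2 bind each other as proteins, but in these libraries the level of *Meioc* followed that of *Stra8* more closely than that of *Ythdc2*, which is a description of 4 libraries.

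Between the members and their partners, the ratio of *Stra8* to *Meiosin* was 7.99 and 7.54 in the controls and 8.37 and 7.64 in Mps1sKO, with overlap and a difference in the mean log2 ratio of 0.04, which turned to -0.02 without Mps1sKO 1. The ratio of *Ythdc2* to *Rbm46* was 0.275 and 0.270 in the controls and 0.280 and 0.304 in Mps1sKO, a difference of 0.10 on the log2 scale that was 0.037 without Mps1sKO 2 and 0.15 without Mps1sKO 1. For these 5 ratios, the two-sided exact permutation test gave p = 0.333 for the 4 without overlap (0.417 adjusted over the 5) and 0.667 for *Stra8* to *Meiosin*. With 2 libraries against 2 the smallest p it can give is 0.333.

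**Figure D2:**
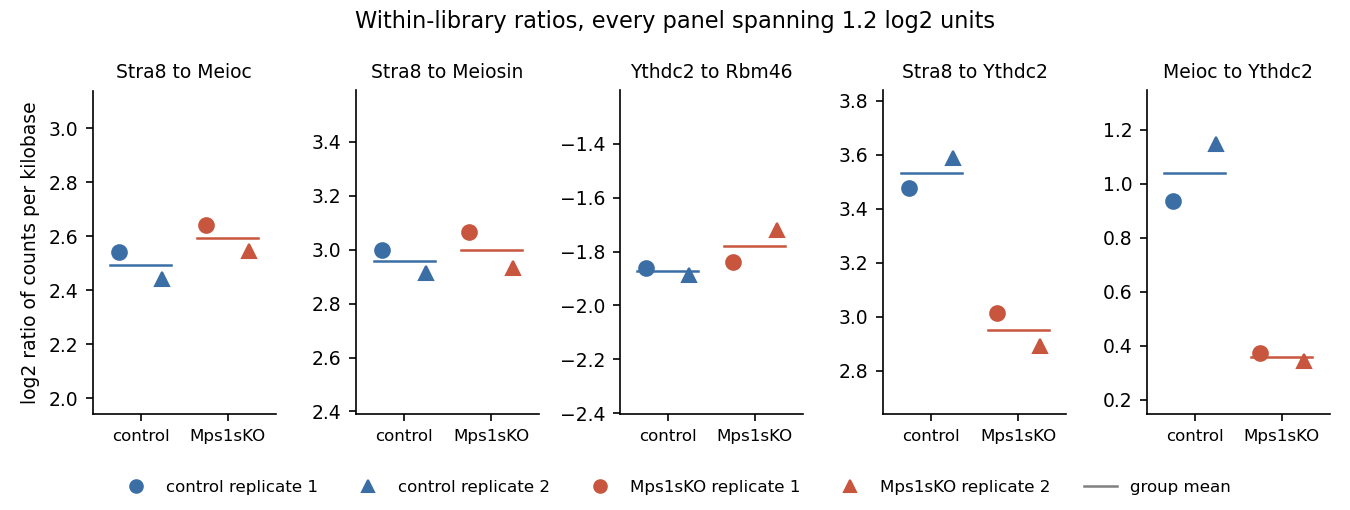
Log2 ratio of counts per kilobase between pairs of genes in each of the 4 libraries, with group means as lines, on axes that start at different values but all span 1.2 log2 units. The ratios to *Ythdc2* are lower in both Mps1sKO libraries by a mean of 0.58 for *Stra8* and 0.68 for *Meioc*, while the other 3 ratios move by 0.10 or less.

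The genes with the profile most like each member over the 4 libraries were named by the root mean square distance of their centred log2 CPM, among 17042 rows with a mean of at least 1 CPM. Since 4 libraries give few degrees of freedom, these are descriptions. Nearest to *Stra8* were *Ctcfl*, which encodes a germ cell paralog of CTCF, at a distance of 0.0264, then *Hormad1*, which encodes a meiotic chromosome axis protein, *Gm6207*, *Gm7972* and *Galnt6*. *Meiosin* took place 13, *Meioc* place 16 and *Ythdc2* place 1345 around *Stra8*. Nearest to *Meioc* were *BC051142* at 0.0199, *AC129309.1*, *Meiosin* in place 3, *Gm40557* and *Gm21964*, and *Stra8* took place 9. Nearest to *Ythdc2* were *Ska1* at 0.0117, a gene of the spindle and kinetochore, then *Gm28802*, *Rel*, *1700034P13Rik* and *Focad*. Of these nearest genes, *Gm6207*, *AC129309.1*, *Gm40557*, *Gm28802* and *1700034P13Rik* had means under 2 CPM over the 4 libraries. *Rbm46* took place 271 around *Ythdc2*, *Stra8* place 12919 and *Meioc* place 14753. The distance between *Stra8* and *Ythdc2* was 0.297 whichever of them was the centre. A place therefore also depends on how many rows lie close to the centre gene.

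The list of meiotic prophase genes holds known targets of STRA8 and MEIOSIN. Of 45 listed, 43 were tested, and all 43 had a log2 fold change under 0, with a median of -0.56, against 49.9% of all tested rows and a median of 0.00027 over them. None passed an adjusted p of 0.05 in edgeR or limma-voom. Without control 2 the median was -0.36. At an unadjusted p under 0.05, 34 were lower, against 5.37% of all rows, and 16 met the study's cut-offs, against 0.681%. With DESeq2 2 fell at an adjusted p under 0.05, against 0.194% of the rows that it gave one. These were *Zcwpw1*, which encodes a histone reader at recombination sites, with a DESeq2 adjusted p of 0.0127, and *Stag3*, which encodes a meiotic cohesin subunit, with 0.0381. *Stag3* was at 143 and 184 CPM in the controls and 119 and 95.4 CPM in Mps1sKO. *Sycp1*, of the synaptonemal complex, was at 104 and 140 CPM in the controls and 91.1 and 70.3 CPM in Mps1sKO, with a log2 fold change of -0.60. The values ran from -0.76 for *Spo11*, which makes the breaks that start recombination, to -0.07 for the cohesin gene *Rec8*. The value of *Spo11* was close to that of *Stra8* (-0.79, SE 0.174), so the order of these 2 cannot be told from these libraries. Some of these genes, and *Meiosin*, are also on the study's list of lower genes from the same libraries, so their direction is not independent evidence. *Sycp1* and *Stag3* were among the genes that the study also checked by qPCR in P10 testes, with changes it calls consistent. *Tex15* (-0.48) and *Smc1b* (-0.56) completed the 3 listed genes with the highest level per length.

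Mitotic genes, the kind whose transcripts the MEIOC and YTHDC2 complex is known to lower, mostly had lower values in Mps1sKO. Of 22 mitotic cell cycle genes, 20 had a log2 fold change under 0, against 49.9% of all tested rows, with a median of -0.30. The germ cell genes, read below, had a median of -0.40, and a difference between the 2 lists was not tested. None of the mitotic genes passed an adjusted p of 0.05 in edgeR, DESeq2 or limma-voom. At an unadjusted p under 0.05 15 were lower, against 5.37% of all rows. The cyclin gene *Ccnd2* was the 1 that was higher, as were 3.92% of all rows. *Ccna2* was at 78.6 and 80.6 CPM in the controls and 63.2 and 68.2 CPM in Mps1sKO, without overlap. Its log2 fold change was -0.28 (SE 0.0912, edgeR adjusted p = 0.497). *Cdc20* (-0.41), *Top2a* (-0.39) and *Tpx2* (-0.20), the 3 with the highest level per length, had values of the same sign. *Ccnd2* was at 215 and 182 CPM in the controls and 254 and 235 CPM in Mps1sKO, with a log2 fold change of 0.30 (edgeR adjusted p = 0.507).

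The other genes of the m6A mark, which the YTH fold recognises, lay on both sides of 0 and within 0.17 of it on the log2 scale. Of 13 writers, erasers and YTH readers, 6 had a log2 fold change under 0 and 7 above it, with a median of 0.003, and none reached an unadjusted p of 0.05 in edgeR or an adjusted p of 0.05 in DESeq2 or limma-voom. The reader genes *Ythdc1* (0.03), *Ythdf1* (0.06), *Ythdf2* (0.03) and *Ythdf3* (0.14) had log2 fold changes above 0. The writer genes *Mettl3* (-0.08), *Mettl14* (-0.10), *Wtap* (-0.002), *Virma* (0.05), *Zc3h13* (-0.08), *Rbm15* (0.003) and *Cbll1* (-0.05) lay on both sides. The eraser genes were *Fto* at 0.17 and *Alkbh5* at -0.13, the ends of the range. The summed level of the list was between 98.6% and 101% of the control mean in every library.

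Genes known to act upstream of *Stra8* had values on both sides of 0. Of 24, 17 had a log2 fold change under 0, with a median of -0.05, and none passed an adjusted p of 0.05 in edgeR, DESeq2 or limma-voom. At an unadjusted p under 0.05 4 were lower and 1 was higher, against 5.37% and 3.92% of all rows. The lower ones included *Sohlh1*, which encodes a transcription factor of spermatogonial differentiation. It was at 74.9 and 76.2 CPM in the controls and 54.5 and 53.5 CPM in Mps1sKO (log2 fold change -0.49, SE 0.0877, edgeR adjusted p = 0.494). The others were *Dmrtb1* (-0.54), which encodes a factor of spermatogonia, *Rarg* (-0.37), a retinoic acid receptor gene, and *Sohlh2* (-0.28). *Aldh1a1*, which encodes an enzyme that makes retinoic acid, was the higher one, at 935 and 857 CPM in the controls and 1064 and 1099 CPM in Mps1sKO (0.27).

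Among other retinoic acid genes, the synthesis genes *Aldh1a2* (-0.26), *Aldh1a3* (-0.03) and *Rdh10* (-0.15) and the degradation genes *Cyp26a1* (-0.33), *Cyp26b1* (0.21) and *Cyp26c1* (0.03) had an unadjusted p above 0.05. So had the receptor genes *Rara* (0.21), *Rarb* (-0.52) and *Rxra* (0.01), with *Rarb* under 1 CPM in every library. *Dmrt1* (-0.06) and the translational repressor genes *Nanos2* (0.22, under 2 CPM) and *Nanos3* (-0.30) gave no call either. Of the repressors that keep meiotic genes silent, *Max* (-0.03), *Mga* (-0.01), *E2f6* (-0.09), *Pcgf6* (0.10), *L3mbtl2* (-0.01), *Kdm1a* (-0.07) and *Setdb1* (-0.04) were all within 0.11 of 0 on the log2 scale.

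**Figure D3:**
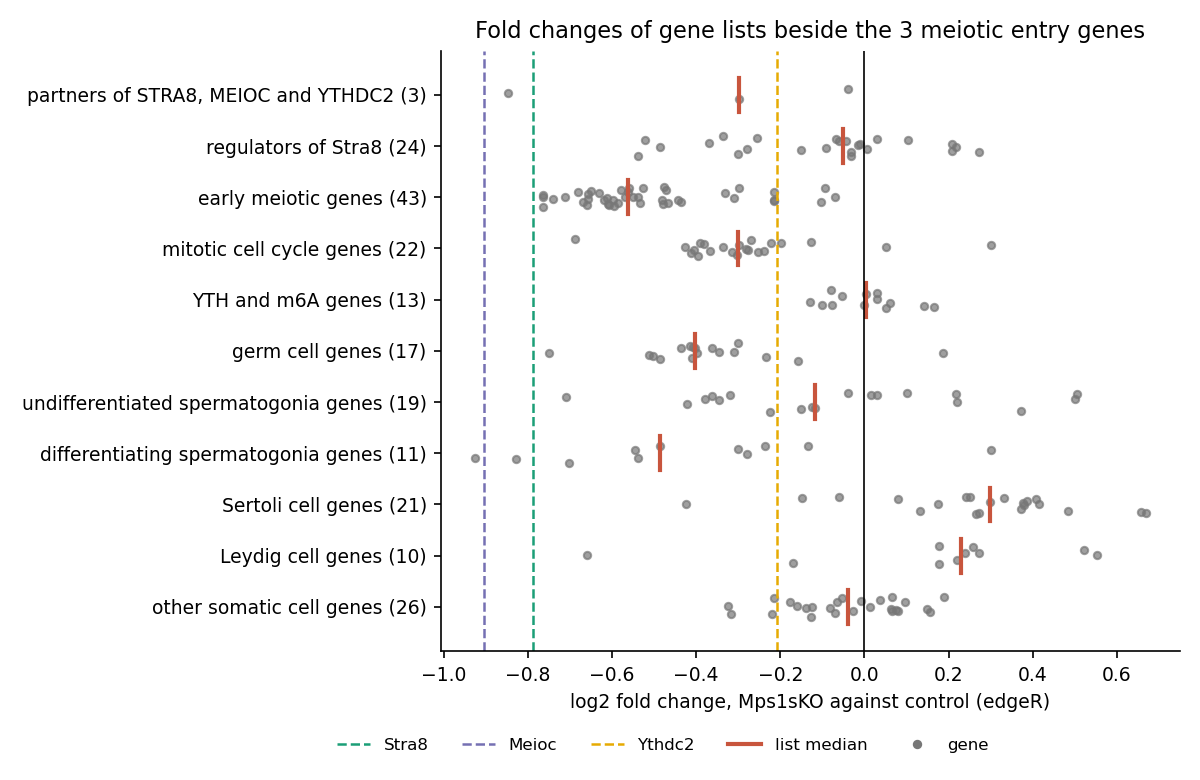
Log2 fold change (edgeR, Mps1sKO against control) of each tested gene in 11 lists, the number tested in parentheses, with list medians as bars and the values of *Stra8*, *Meioc* and *Ythdc2* as dashed lines. *Stra8* (-0.79) and *Meioc* (-0.90) lie below the medians of all lists shown, and *Ythdc2* (-0.21) lies above the early meiotic (-0.56) and germ cell (-0.40) medians. Single listed genes reach the range of *Stra8* and *Meioc*, such as *Prss50* (-0.93) and *Meiosin* (-0.85).

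Cell type markers were read beside the members because a whole testis mixes germ and somatic cells. The defining germ cell genes were present, *Ddx4* at 196 and 221 CPM in the controls and 175 and 139 CPM in Mps1sKO. Of 17 germ cell genes tested, 16 had a log2 fold change under 0, against 49.9% of all tested rows, with a median of -0.40. The groups did not overlap for those 16, as was so in the lower direction for 21.1% of all rows. The median was -0.21 without Mps1sKO 2 and -0.58 without Mps1sKO 1. None passed an adjusted p of 0.05 in edgeR or limma-voom, and 12 were lower at an unadjusted p under 0.05, against 5.37% of all rows. With DESeq2 2 fell, *Tex101* (adjusted p = 0.00128) and *Mael* (adjusted p = 0.0264), against 0.194% of the rows that it gave one. *Ddx4* (-0.41), *Dazl* (-0.40) and *Mael* (-0.51) were the 3 with the highest level per length. The summed level of the list was 91.8% and 108% of the control mean in controls 1 and 2 and 85.3% and 65.3% in Mps1sKO 1 and 2. The libraries thus stood in the order seen for *Stra8* and *Meioc*.

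Genes of differentiating spermatogonia, the cells in which *Stra8* comes on, showed a median of -0.49, and 10 of the 11 were under 0. None passed an adjusted p of 0.05 in edgeR or limma-voom. At an unadjusted p under 0.05 7 were lower and 1 higher, against 5.37% and 3.92% of all rows. With DESeq2 *Prss50* fell (adjusted p = 0.00736), as did 0.194% of the rows that it gave one. The edgeR log2 fold change of *Prss50*, -0.93, was the lowest of this list and reached that of *Meioc* (-0.90). *Crabp1* (-0.55), which encodes a retinoic acid binding protein, *Sohlh1* and *Ccnd2* were the 3 with the highest level per length. The list shares *Dmrtb1*, *Nanos3*, *Sohlh1* and *Sohlh2* with the genes upstream of *Stra8* and *Ccnd2* with the mitotic genes. Genes of undifferentiated spermatogonia showed a median of -0.12, and 11 of the 19 were under 0, against 49.9% of all tested rows. At an unadjusted p under 0.05 5 were lower, against 5.37% of all rows, and none had an adjusted p under 0.05 with any of the 3 tools. Without control 1 the median was -0.013. *Zbtb16* (-0.36), *Lin28a* (-0.35) and *Bmi1* (-0.12) were the 3 with the highest level per length.

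For 21 tested Sertoli cell genes the median was 0.30, and 18 of them were above 0. At an unadjusted p under 0.05 8 were higher, against 3.92% of all rows, and no tool gave an adjusted p under 0.05. *Inha* (0.38), *Aard* (0.33) and *Clu* (0.25) were the 3 with the highest level per length. The summed level was 101% and 98.96% of the control mean in the controls and 123% and 121% in Mps1sKO. For 10 Leydig cell genes the median was 0.23 (*Hsd3b1* 0.18, *Hsd17b3* 0.52, *Cyp17a1* -0.17), and for 26 genes of other somatic cells it was -0.04 (*Acta2* -0.12, *Myh11* -0.05, *Mylk* 0.04). In both lists no tool gave an adjusted p under 0.05. At an unadjusted p under 0.05 1 Leydig gene was higher, against 3.92% of all rows, and 0 of the others were called. The part of these cell type differences in the levels of the members was not tested by the comparison of whole testes.

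Against the mean log2 CPM of the 17 germ cell genes in the same library, *Stra8* was at 1.07 and 1.37 in the controls and 0.85 and 0.76 in Mps1sKO, a difference of -0.41. *Meioc* was at -0.12 and 0.28 in the controls and -0.43 and -0.43 in Mps1sKO, a difference of -0.51. *Ythdc2* was at -0.11 and 0.08 in the controls and 0.14 and 0.17 in Mps1sKO, a difference of 0.17 in the other direction. Each of the 3 comparisons was without overlap between groups. How many of all rows would not overlap on such a relative scale was not computed. In CPM, 4333 of the 20561 tested rows were lower in Mps1sKO without overlap and 4176 were higher. The sizes of the differences rest on single libraries. Without control 2 the differences were -0.26 for *Stra8*, -0.31 for *Meioc* and 0.26 for *Ythdc2*, and without control 1 that of *Ythdc2* was 0.074. Against the 11 genes of differentiating spermatogonia, the differences were -0.36 for *Stra8*, -0.46 for *Meioc* and 0.22 for *Ythdc2*, also without overlap. With 1 library left out in turn they ran from -0.51 to -0.21 for *Stra8*, from -0.66 to -0.26 for *Meioc* and from 0.13 to 0.32 for *Ythdc2*, the values nearest 0 coming without Mps1sKO 2, control 2 and control 1. The two-sided exact permutation test gave the smallest p it can, 0.333, for all 6 (0.333 adjusted over them). The sign of each difference stayed the same with any 1 library left out. That of *Ythdc2* was opposite to its sign in whole-testis CPM. Both reference lists were themselves lower in Mps1sKO, by more than *Ythdc2* was, so any gene with a smaller drop than the reference turns positive by subtraction.

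**Figure D4:**
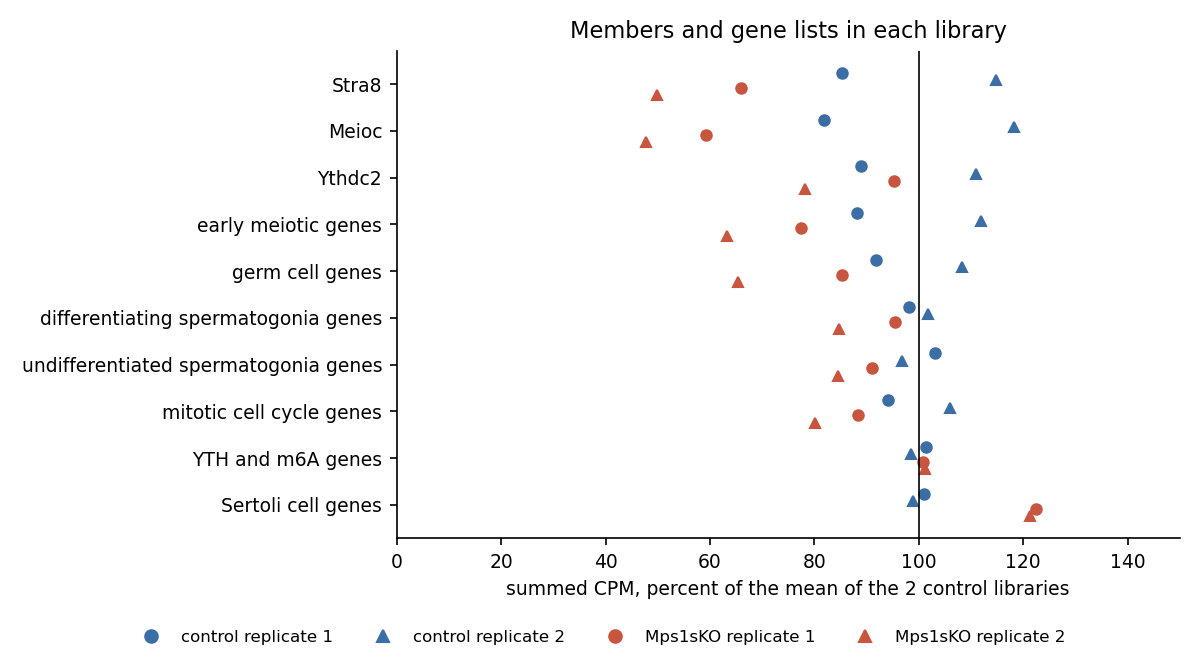
Level of each member and summed level of 7 gene lists in each library, as percent of the mean of the 2 control libraries. *Stra8* (66.0% and 49.8%) and *Meioc* (59.2% and 47.7%) are lower in Mps1sKO than the germ cell genes (85.3% and 65.3%), *Ythdc2* (95.2% and 78.2%) is nearer to the controls, and Sertoli cell genes are above 120%.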

How the data were processed

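Whole testes at P10 from 2 control and 2 Mps1sKO libraries were grouped by the genotype in the labels. The authors deposited raw counts per gene and FPKM values (divided by gene length and library size by the authors) in 1 table. The submitters' processing notes name HISAT2 2.0.5, featureCounts, DESeq2 1.16.1 and the build mm10. The strand setting and annotation release are not given in the sources used here. Of 55820 rows, 284 have no annotated identifier.

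The quasi-likelihood test of edgeR 4.0.16 (R 4.3.3) was run on the counts as deposited (filterByExpr, TMM factors, genotype as the term), which left 2 residual degrees of freedom and a common biological coefficient of variation of 0.106. FPKM values were used only to compare levels between genes. Tests were fitted on all 20561 tested rows and checked on simulated data. Ratios within a library used counts divided by gene length. Members and lists were chosen with earlier results of these data known. No batch is given in the labels.

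Named genes are the members, *Ttk*, all genes of the partner, m6A and upstream lists, the 3 genes with the highest mean FPKM of each other list, *Ccna2*, and the 5 nearest profiles of each member. *Spo11*, *Rec8*, *Zcwpw1*, *Stag3*, *Tex101* and *Prss50* were added after their values were seen. Of the lists, *Majin*, *Sycp2l* and *Rhox5* were not tested for low counts. The alternatives were DESeq2 1.42.0, limma-voom 3.58.1, other scalings and filters, a robust dispersion, annotated genes only, the replicate number as a block, scaling to germ cell genes, and each library left out. The p-values measure only the spread between these 4 libraries.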

Additional observations from a re-analysis of the deposited data

How the results depend on the processing

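*Stra8* and *Meioc* had a log2 fold change under 0 in all 14 alternatives each, and the adjusted p went under 0.05 in 3. With DESeq2 the values were -0.78 and -0.90, and with no filter on low counts they were -0.79 and -0.90 (edgeR adjusted p = 3.63e-10 and 7.53e-11). The main fit also gave -0.79 and -0.90, and the unfiltered fit called 390 rows in all, against 6 in the main fit. Why the adjusted p differed was not tested. The remaining alternative of these 3 was the fit without control 1, which leaves a single control library. With each library left out in turn, values ran from -1.004 to -0.56 for *Stra8*, -1.15 to -0.62 for *Meioc* and -0.36 to -0.04 for *Ythdc2*. *Ythdc2* turned to 0.17 (edgeR adjusted p = 0.585) when libraries were scaled to the germ cell genes, which were themselves lower in Mps1sKO. *Stra8* and *Meioc* then gave -0.42 and -0.53. Their edgeR unadjusted p was 0.0577 and 0.0234 (adjusted p = 0.201 and 0.160), so neither met the study's cut-off on p. *Ttk* lost its call with limma-voom (-1.26), DESeq2 size factors (-1.26), at least 10 counts in every library (-1.27), annotated genes only (-1.26) and the replicate block (-1.26, adjusted p = 0.224).

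Over all rows, 6 were called at an adjusted p under 0.05, against 37 with DESeq2, 3 with limma-voom, 390 with no filter, 3 with at least 10 counts, 3 with annotated genes only, and 17 to 199 with a library left out. At the study's cut-offs 170 rows passed, against 474 with no filter and 186 to 514 with a library left out. The causes were not tested. Leaving out a library gave list medians of -0.12 to -0.073 for the genes upstream of *Stra8*, -0.041 to 0.021 for the m6A genes and -0.071 to 0.0023 for other somatic genes. It gave -0.70 to -0.36 for the early meiotic, -0.58 to -0.21 for the germ cell and -0.15 to -0.013 for the undifferentiated spermatogonia genes. Leaving out libraries for the ratios to *Meiosin* and *Rbm46* and for the differentiating spermatogonia reference was added after seeing the data.

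Same-numbered libraries deviated in opposite directions (r = -0.27 across 20561 genes, which are not independent replicates). With a single difference per group, this cannot tell whether the numbers pair the libraries. The replicate block left 2 calls and gave *Stra8* -0.79 and *Meioc* -0.89 (adjusted p = 0.915 for both). A crossed replicate block, chosen after seeing the data, gave 550 calls, and 273 at the study's cut-offs.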
